A study of Mus musculus with 8 samples.

Results

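The matrix-related genes Sdc1, Dse, Abi3bp and Adamtsl1 were followed across the RNA-seq libraries of mature mouse oocytes. They are 4 of the 417 gene names in the deposited table, each with 1 of its 469 rows, and they were picked by name because of how their rows differ between KO and Ctrl libraries. Their KO against Ctrl values are therefore given as a description, without a test. The table covers 4 Ctrl libraries, from L/L females with the genotype label WT, and 4 KO libraries, from L/L cre females, all aged about 6 months. L/L is common to both groups. Each library holds merged oocytes at metaphase II (M2) taken from the ovary and amplified by Smart-seq2, which copies whole messenger RNAs from minute samples. The design text states that the comparison concerns oocytes in which reactive oxygen species of the mitochondrial matrix are raised. The labels name neither the targeted gene nor the promoter that drives Cre, and they do not say how many oocytes were merged or whether the libraries came from separate females. The spread between libraries may thus be technical.

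The extracellular matrix is the network of secreted proteins and sugar chains around cells. Proteoglycans are core proteins that carry long sulfated chains called glycosaminoglycans, of which heparan sulfate and dermatan sulfate are examples. They bind growth factors and tie cells to matrix proteins. An oocyte grows inside the zona pellucida, a glycoprotein coat, and in the preovulatory follicle the cumulus cells around it lay down a matrix rich in hyaluronan.

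The genes have different roles. Sdc1 encodes syndecan-1, a transmembrane proteoglycan that carries heparan sulfate. Dse encodes dermatan sulfate epimerase, which turns glucuronic acid into iduronic acid within a growing chain and so makes dermatan sulfate from chondroitin sulfate. Abi3bp encodes a secreted matrix protein that was found through its binding to the SH3 domain of ABI3. Adamtsl1 encodes a secreted glycoprotein built like the ADAMTS proteases but without their catalytic domain. In the GENCODE M21 annotation (GRCm38) Sdc1 lies on the + strand of chromosome 12 from 8771323 to 8793715 and Dse on the - strand of chromosome 10 from 34151393 to 34207715. Abi3bp lies on the + strand of chromosome 16 from 56477878 to 56690135 and Adamtsl1 on the + strand of chromosome 4 from 85514172 to 86428385. The annotation holds 3 coding transcripts each for Sdc1 and Dse, 7 for Abi3bp and 6 for Adamtsl1. The rows carry no transcript identifier, so which transcript a row stands for is not known here.

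The promoters of Dse and Sdc1, the 2 genes that stood higher in KO, are shown for reference, from RefSeq on GRCm38.p6, with 250 bases before and 50 after the annotated start. The table of promoter sequences used here held these 2 of the 4 genes. Capitals mark matches on either strand to the GC box GGGCGG or to the core of the antioxidant response element, TGACNNNGC, the site of the oxidative stress factor NRF2. The Dse window is chr10:34207186-34207485 on the - strand and the Sdc1 window is chr12:8771146-8771445 on the + strand. Positions are counted from the RefSeq start. The Dse window lies wholly inside the GENCODE span of the gene, which reaches 34207715, so the 2 annotations differ in where the gene starts. They differ for Sdc1 too, whose GENCODE start, 8771323, lies inside the window and before the RefSeq start.
Dse: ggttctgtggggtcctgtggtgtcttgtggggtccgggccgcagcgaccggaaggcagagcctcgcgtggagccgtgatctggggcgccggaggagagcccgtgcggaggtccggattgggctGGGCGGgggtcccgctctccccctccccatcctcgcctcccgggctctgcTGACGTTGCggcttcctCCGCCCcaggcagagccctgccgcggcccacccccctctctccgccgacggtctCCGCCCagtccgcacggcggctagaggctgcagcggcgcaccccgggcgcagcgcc
Sdc1: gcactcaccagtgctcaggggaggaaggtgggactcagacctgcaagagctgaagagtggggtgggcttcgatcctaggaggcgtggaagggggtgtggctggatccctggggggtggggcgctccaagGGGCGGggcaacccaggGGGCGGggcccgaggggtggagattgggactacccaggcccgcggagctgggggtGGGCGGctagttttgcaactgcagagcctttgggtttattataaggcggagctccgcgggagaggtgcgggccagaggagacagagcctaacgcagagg
Each window held 3 GC boxes, which 35.7% of 32851 promoters of the same length hold at least once. The Dse window held 1 match to the antioxidant core, TGACGTTGC, whose first base lies 77 bases before the start, and 12.4% of promoters hold one. The Sdc1 window had no match to these letters, and neither window held TATAAA, which 13.6% of promoters hold. The motifs marked do not overlap each other. Both windows were rich in C and G, at 75.3% for Dse and 66.3% for Sdc1 against a median of 52.7%, with 33 and 14 CpG dinucleotides against a median of 7. A match is a description of the letters and shows no binding.

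The levels are TPM, abundance per unit of transcript length, expressed as a share of the library's total, which allows levels to be compared between genes. A level of 0 can be a failed estimate of a transcript, so zeros are reported as listed at 0. In merged oocytes, a lower level in every oocyte and a loss from some of the oocytes cannot be told apart. All 4 genes averaged 1 TPM or more across the 8 libraries, the minimum set for testing, which 402 genes reached. Dse reached it through its KO libraries alone, and Abi3bp through its Ctrl libraries.

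Both genes of glycosaminoglycan biology stood higher in KO and both secreted glycoproteins stood lower. For Sdc1 the Ctrl libraries 1 to 4 held 13.7, 5.78, 39.8 and 25.6 TPM, and the KO libraries 1 to 4 held 36.4, 93.0, 70.8 and 51.7 TPM. Only Ctrl library 3 exceeded a KO library, KO library 1, so the groups overlapped at that one point. Ctrl libraries averaged 21.2 ± 14.8 TPM (SD, n = 4). KO libraries averaged 63.0 ± 24.5 TPM (SD, n = 4), which is 2.97-fold higher. On the log2(TPM + 1) scale KO was higher by 1.73 ± 0.51 (SE, n = 4 per group). Here and below, each SE is the moderated one of the limma fit. It draws on the spread of all genes fitted, so it is not the spread of this gene alone. Syndecan-1 was the most abundant of the 4 in every KO library, where it ranked 22nd to 38th of the 402 genes, and it ranked 38th to 196th in Ctrl. A transcript of Gm16407 matches Sdc1 over 418 bp at 95.2% identity and has no row in the table, so a share of reads could be assigned to either.

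For Dse the level was listed at 0 in all 4 Ctrl libraries. The KO libraries 1 to 4 held 1.03, 23.2, 8.40 and 3.71 TPM. The listed row of Dse was thus above 0 in every KO library and in no Ctrl library. Its level differed 22.5-fold between the highest and the lowest KO library. Dse transcripts without a row are not covered, so absence of Dse from Ctrl oocytes is not shown. No fold between the groups is given, since the Ctrl side is 0. Of the 402 genes, 3 (0.746%) were listed at 0 in all 4 Ctrl libraries. Among GENCODE M21 transcripts no other gene matched Dse, Abi3bp or Adamtsl1 at 95% identity over 200 bp or more.

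For Adamtsl1 the Ctrl libraries 1 to 4 held 10.1, 6.52, 17.6 and 6.61 TPM. The KO libraries 1 to 4 held 3.69, 1.61, 0 and 0 TPM. The groups did not overlap, and the gap between them ran from 3.69 TPM in KO library 1 to 6.52 TPM in Ctrl library 2. The difference of mean log2(TPM + 1), KO minus Ctrl, was -2.48 ± 0.58 (SE, n = 4 per group). It rests in part on the zeros and moved to -4.23 with a pseudocount of 0.1 and to -1.25 with one of 5.

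For Abi3bp the Ctrl libraries 1 to 4 held 3.20, 2.28, 2.30 and 4.72 TPM. The KO libraries 1 to 4 held 0.327, 0, 0.349 and 0 TPM. The groups did not overlap, and the Ctrl libraries lay within 2.07-fold of each other, the narrowest Ctrl range of the 3 genes detected there. The difference of mean log2(TPM + 1) was -1.80 ± 0.36 (SE, n = 4 per group), and it was -3.88 with a pseudocount of 0.1 and -0.64 with one of 5.

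**Figure D1:**
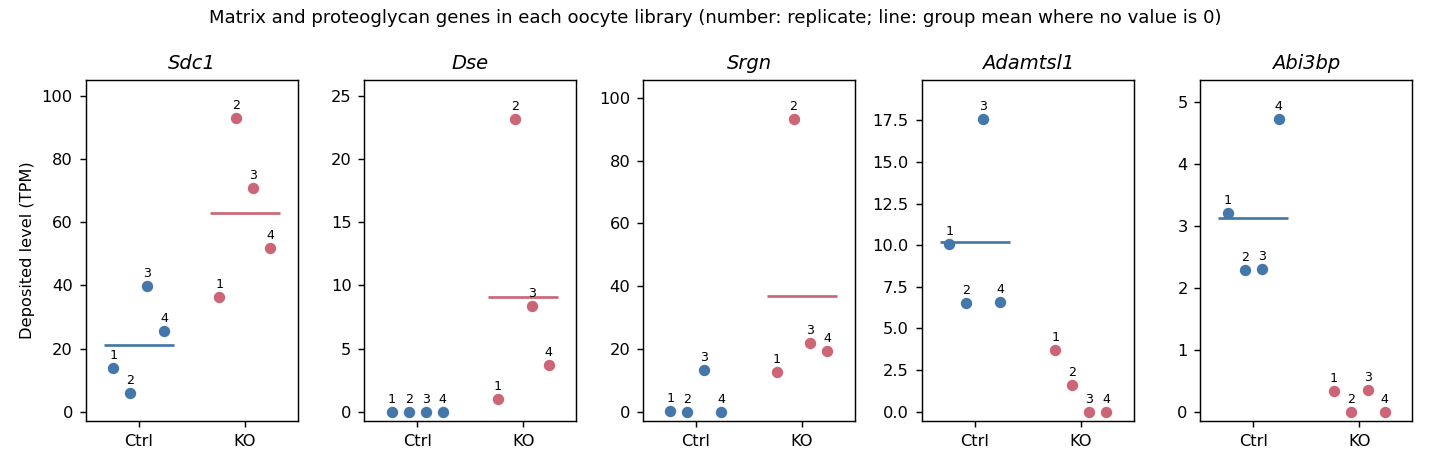
Level in TPM of the 4 genes and of Srgn, a proteoglycan gene described further on, in each Ctrl (blue) and KO (red) library. Numbers are replicates and lines are group means, drawn only where no value is 0. Sdc1 and Srgn overlap at Ctrl library 3 and KO library 1, and the other 3 genes do not overlap.

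Thus 3 of the 4 genes had groups that did not overlap, against 56.5% of all 402 genes, 20.1% with KO above and 36.3% with KO below. This share was fixed by the way the genes and the table's rows were picked, and nothing is read from it. Every row of the table differs at least 2.045-fold between the group means. In the limma fit across all genes 377 of 402 (93.8%) had an adjusted p under 0.05, with 147 (36.6%) higher and 230 (57.2%) lower in KO. The median difference over the 402 genes was -1.05 on the log2(TPM + 1) scale.

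**Figure D2:**
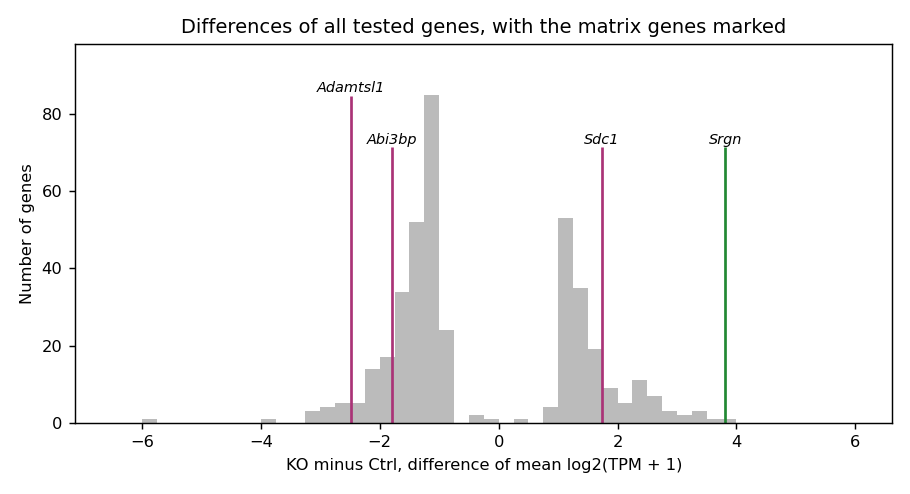
Histogram of the KO minus Ctrl difference of mean log2(TPM + 1) over the 402 genes tested, with Adamtsl1 at -2.48, Abi3bp at -1.80 and Sdc1 at 1.73 (purple lines) and Srgn at 3.81 (green line). The centre is nearly empty, as every row differs at least 2.045-fold between the group means. Dse is not drawn because its Ctrl level is listed at 0.

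The order of the genes by level was not the same in Ctrl and KO. In Ctrl libraries 1, 3 and 4 the order from high to low was Sdc1, Adamtsl1, Abi3bp and Dse, and in Ctrl library 2 Adamtsl1 stood above Sdc1, at 6.52 against 5.78 TPM. In KO libraries 2, 3 and 4 Dse held the second place, and in KO library 1 it stood below Adamtsl1, at 1.03 against 3.69 TPM. Neighbours in these orders had overlapping ranges for Sdc1 and Adamtsl1 in Ctrl, whose ranges of 5.78 to 39.8 TPM and 6.52 to 17.6 TPM crossed, and for Dse, Adamtsl1 and Abi3bp in KO.

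The scale of the libraries bears on these differences. All rows of the table together made up 3.20% to 4.25% of the TPM total in Ctrl libraries and 1.29% to 1.99% in KO libraries. Median-of-ratios scaling computed from the listed rows moved the median difference of all genes from -1.05 to -0.35, and quantile normalization moved it to -0.69. Under the first, the calls were 145 higher and 52 lower, and under the second 146 higher and 94 lower. Each of the 4 genes kept its direction under both. After median-of-ratios scaling Sdc1 no longer overlapped (3.48 to 42.6 in Ctrl against 44.5 to 174.7 in KO), while Adamtsl1 did (3.70 to 18.8 in Ctrl against 0 to 4.52 in KO). After quantile normalization the highest Ctrl and the lowest KO value of Sdc1 were equal, at 50.9. Adamtsl1 also overlapped after quantile normalization, at 4.37 to 21.0 in Ctrl and 0 to 4.85 in KO. Abi3bp stayed apart under both scalings. So did Dse, but its Ctrl values stayed at 0 under both, and those zeros fixed its separation and its direction.

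**Figure D3:**
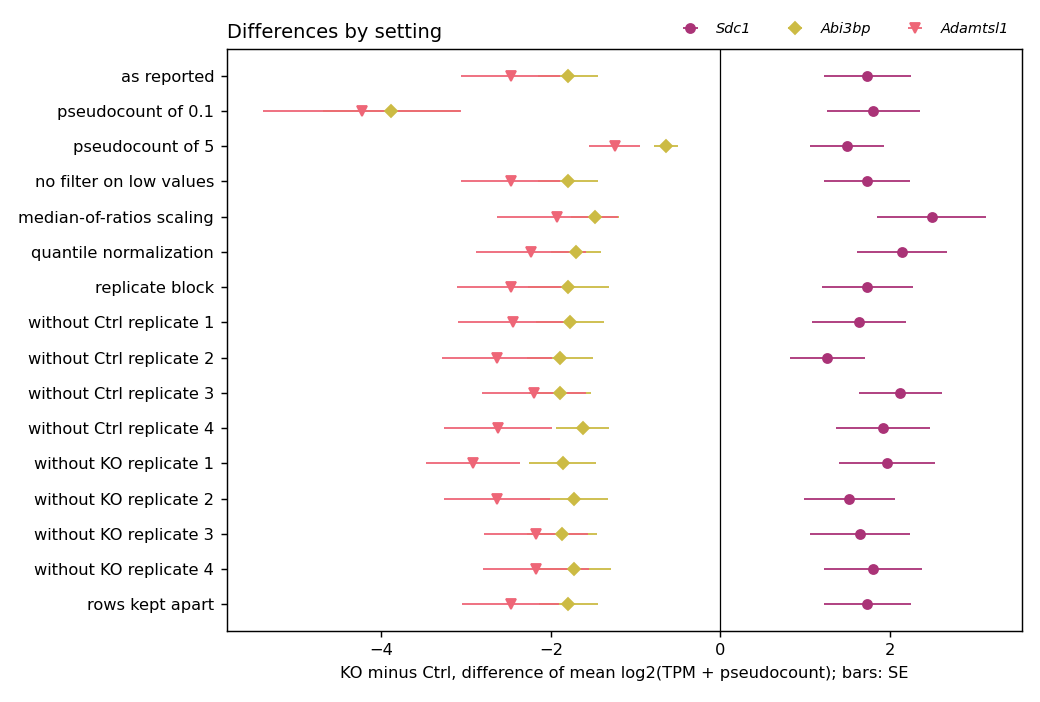
KO minus Ctrl difference of mean log2(TPM + pseudocount) for Sdc1, Abi3bp and Adamtsl1 under each setting, with bars of 1 moderated SE. All values of Sdc1 lie above 0, from 1.26 to 2.49, and all values of Abi3bp and Adamtsl1 lie below 0, where the pseudocounts of 0.1 and 5 move them most.

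Across the libraries of 1 group the genes did not move as a block. Among the 6 pairs of KO libraries, Sdc1 and Dse ranked all 6 the same way, in the order 2, 3, 4, 1 from high to low. Sdc1 and Adamtsl1 ranked 2 of these pairs alike and 3 in opposite order, with 1 tied at 0, and the counts were the same for Sdc1 and Abi3bp. The KO order of Abi3bp rests on values near 0, at 0.327 and 0.349 TPM in libraries 1 and 3 and 2 zeros. Libraries 1 and 3 changed places after median-of-ratios scaling, at 0.400 and 0.381, so the counts for Abi3bp depend on the scaling. Among the 6 pairs of Ctrl libraries, where Dse is 0 throughout, Sdc1 and Adamtsl1 ranked 5 alike, Sdc1 and Abi3bp 4, and Abi3bp and Adamtsl1 3. These counts come from 4 libraries a group and are a description only.

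The KO order of Sdc1 and Dse was the reverse of that of the mitochondrially encoded transcripts. The 10 listed mitochondrially encoded mRNAs summed to 14088 TPM in KO library 1, 12386 in library 4, 9827 in library 3 and 5157 in library 2. From the first to the last of these libraries the sum went down 2.73-fold, while Sdc1 went up 2.55-fold and Dse 22.5-fold. The reversal was seen in KO only. Among Ctrl libraries Sdc1 and the mitochondrial sum ranked 5 of 6 pairs alike and 1 in opposite order, and Dse was 0 throughout. The listed rows that are not mitochondrially encoded summed to 5828, 7712, 6680 and 6049 TPM in KO libraries 1 to 4, also in the order 2, 3, 4, 1. The same order 2, 3, 4, 1 was found for 47 of the 402 genes (11.7%). It was found for 41 of the 154 genes with a higher mean in KO (26.6%) and for 6 of the 248 with a lower mean (2.42%). The order was thus shared with many genes of the table and is not particular to these 2. It was the same after median-of-ratios scaling and quantile normalization. The part of KO library 2 in the results was not tested beyond leaving it out, when Sdc1 was still higher in KO, by 1.52 ± 0.54 (SE) on the log2 scale.

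**Figure D4:**
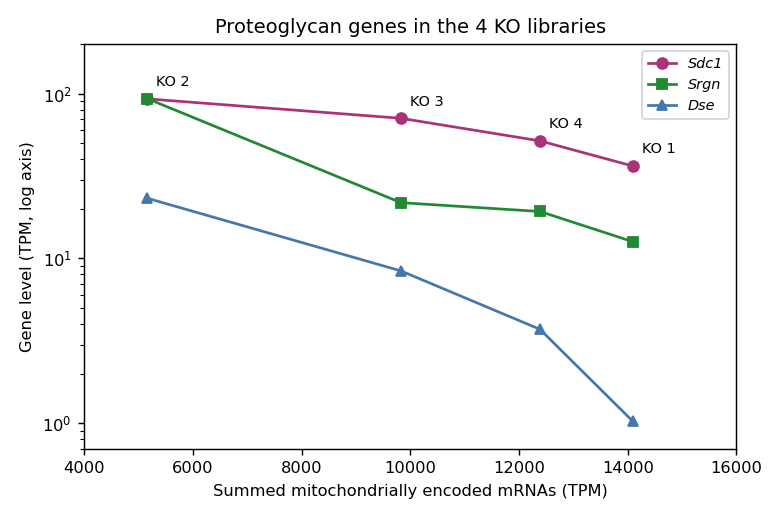
Level (TPM, log axis) of Sdc1, Srgn and Dse in the 4 KO libraries against the summed level of the 10 mitochondrially encoded mRNAs (TPM). All 3 genes step down from KO library 2 to 3, 4 and 1 as the mitochondrial sum steps up from 5157 to 14088 TPM, most steeply for Dse. Ctrl libraries are not drawn, and among them Sdc1 ranked 5 of 6 pairs as the mitochondrial sum did.

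Of 353 genes on lists of collagens, matrix glycoproteins, proteoglycan core proteins, enzymes of glycosaminoglycan synthesis and turnover, matrix proteases and cross-linkers, and matrix receptors, 5 had a row. Besides the 4 genes this was Srgn, which encodes serglycin, the proteoglycan of secretory granules in blood cells. The other 348 were not analysed here. Srgn was at 0.0753, 0, 13.3 and 0 TPM in Ctrl libraries 1 to 4 and at 12.7, 93.3, 21.8 and 19.3 TPM in KO libraries 1 to 4. It was high in all KO libraries and in 1 Ctrl library, and the groups overlapped there. Srgn rose by the limma fit (difference of mean log2(TPM + 1) 3.81 ± 0.82 SE, n = 4 per group, adjusted p = 0.00469), in a table in which 36.6% of genes rose. Its row, like all others, was picked for a difference between these groups, so this p is not independent evidence of one. Its adjusted p by the limma fit was 3.5e-07 with the replicate number as a block. The replicate numbers were not taken as pairs, so nothing is read from that value. In the other settings the adjusted p ran from 0.000418 without Ctrl replicate 3 to 0.0172 without Ctrl replicate 4. In KO Srgn ranked all 6 pairs of libraries as Sdc1 and Dse did, with a 7.38-fold range.

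None of the 23 oocyte marker genes checked, among them Zp3 and Gdf9, has a row, and none of the 18 of cumulus and granulosa cells, 12 of stroma and theca or 17 of endothelium, blood and immune cells. Every listed row differs at least 2.045-fold between the group means, so a missing row does not show whether a marker was expressed. Other genes known for their expression in oocytes do have rows, and 2 are named here after their values were seen. Nlrp9b averaged 190 TPM in Ctrl and 91.1 TPM in KO, and Eif4e1b, which binds the mRNA cap in oocytes, averaged 36.8 and 12.4 TPM, so oocyte transcripts were present in both groups. The part of other cells in the levels of Sdc1 and Srgn was not tested.

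For each gene the 3 genes outside the lists with the most similar pattern were found, by the root mean square difference of log2(TPM + 1) after centring within each group and scaling to an SD of 1, over 8 libraries and 359 candidates. A value of 0 would mean identical patterns, and centring takes out the step between the groups. Levels near 0 in either group still shape a pattern, and all candidate rows were picked for a difference between the groups. The closest to Sdc1 was Rasa2, a GTPase-activating protein for Ras, at 0.146, followed by Phtf2 at 0.310 and Ncoa2, a nuclear receptor coactivator, at 0.320. Rasa2 was at 0.774, 0, 3.99 and 2.35 TPM in Ctrl libraries 1 to 4 and at 3.23, 8.34, 6.81 and 5.93 TPM in KO libraries 1 to 4, with the library order of Sdc1 in both groups. The closest to Dse, whose pattern rests on the KO libraries alone, were Sirt4, a mitochondrial sirtuin, at 0.234, Dhx30, an RNA helicase, at 0.380 and Cdc27, a subunit of the anaphase-promoting complex, at 0.398. Sirt4 was at or below 0.240 TPM in all Ctrl libraries and at 0.672, 5.33, 2.69 and 1.14 TPM in KO libraries 1 to 4. Sirt4 and Dhx30 averaged 0.0875 and 0.326 TPM in Ctrl and 2.46 and 3.85 TPM in KO. Like Dse, they thus reached the minimum for testing through KO. The closest to Abi3bp were Ehmt1, a histone methyltransferase, at 0.452, Zzz3 at 0.515 and Morc3 at 0.523. For Adamtsl1 the patterns were less alike, with Zc3h14, a poly(A)-binding protein, at 0.623, Zfp932 at 0.826 and Atl1 at 0.850. These genes did not share the direction of Adamtsl1. Zc3h14 averaged 6.93 TPM in Ctrl and 6.19 TPM in KO, Zfp932 5.90 and 1.75 TPM, and Atl1 2.62 and 6.60 TPM.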

How the data were processed

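Gene expression was measured in 8 oocyte libraries, 4 Ctrl and 4 KO by their titles. The authors deposited TPM per row. The submitters' processing notes name build GRCm38 and the tools kallisto 0.46.2 and sleuth 0.30.1. For the annotation release and the choice of the 469 rows nothing is given in the sources. TPM keep no depth, so sequencing depth is unknown and no counting interval is given.

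Rows of one gene name were summed (44 genes have 2 or more). Those averaging under 1 TPM, 15 in all, were left out, and 402 remained. Log2(TPM + 1) was fitted over all 402 with limma 3.58.1 in R 4.3.3 (two-sided, eBayes with a trend). Each SE is the moderated one of this fit, which draws on the spread of all genes. Adjusted p-values are Benjamini-Hochberg values over the 402 genes and count as called under 0.05. The fit was tested on simulated data with normal log2 values at a high level. These held no zeros and no picked rows, so the test does not cover levels near 0. Alternatives were pseudocounts of 0.1 and 5, no filter, median-of-ratios scaling, quantile normalization, the replicate number as a block, each library left out, and rows kept apart. The genes and lists were chosen with earlier results of these data known. Named genes are the 4 genes, other listed matrix genes with a row, and the 3 most similar genes to each, leaving out predicted genes; Pum2 was named after its value was seen. Copies were searched for with blastn 2.17.0 (at least 95% identity over 200 bp). Python 3.11.15, numpy 2.4.6 and pandas 2.3.3 were used.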

Additional observations from a re-analysis of the deposited data

Results flagged for a closer look

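In 4 cases 1 library lay far from the other 3 of its group, judged by the gap to its nearest neighbour over the range of the group. For normally distributed values chance marks about 1 in 20 groups. TPM with zeros are not distributed in that way, so the rate for these groups is not known. Srgn was marked in both groups, at 13.3 TPM in Ctrl library 3 and at 93.3 TPM in KO library 2. Zfp932, one of the genes with a pattern like that of Adamtsl1, was marked at 7.01 TPM in KO library 1. Zzz3, one of those like Abi3bp, was marked at 12.2 TPM in Ctrl library 4. No library was marked for Sdc1, Dse, Abi3bp or Adamtsl1. No cause was tested for any of them.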

How the results depend on the processing

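The directions of Sdc1, Dse, Abi3bp and Adamtsl1 were the same under every alternative run, and Srgn was higher and past the threshold in each. For Dse, listed at 0 in all Ctrl libraries, no alternative could have changed the direction. Srgn was the only matrix gene outside the 4 with a row. The count of such genes that passed, 1 higher and 0 lower throughout, therefore only restates its result. Of the 402 genes, 230 were lower in KO, but 94 under quantile normalization and 52 under median-of-ratios scaling; both scale by rows that were picked for their difference, and the cause was not tested. With each library left out in turn, the number higher, 147 with all libraries, ran from 74 to 140, and the number lower from 114 to 228. The libraries that moved a count by over 1.5 times were Ctrl replicate 2 (74 higher, 114 lower), KO replicate 2 (80 higher, 135 lower) and Ctrl replicate 4 (138 lower). With the replicate number as a block, 112 were higher and 167 lower. Libraries of the same number did not deviate together (correlations across genes of -0.26, -0.20, -0.17 and 0.065 for numbers 1 to 4), so the numbers were not taken as pairs. The level of a gene near 0 TPM is limited by depth, which is unknown.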

Other observations

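The nearest listed gene to Sdc1 was Pum2, a translational repressor, 18742 bp away on chromosome 12. Pum2 was at 2.24, 13.8, 2.12 and 11.3 TPM in Ctrl libraries 1 to 4 and at 0.239, 1.91, 2.83 and 0.00917 TPM in KO libraries 1 to 4, so the lower levels lay in KO where those of Sdc1 lay in Ctrl, with overlap between the groups for both. The nearest listed gene to Adamtsl1 was Haus6, 150470 bp away. The nearest to Dse was Rpf2, 6015531 bp away, and the nearest to Abi3bp was Arl13b, 6103550 bp away.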
